A study of Mus musculus with 6 samples.

Results

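The genes of Wnt ligands, Frizzled receptors, secreted Frizzled-related proteins, Dickkopf proteins and R-spondins were examined in late mouse ovarian tumours. They were chosen by symbol (Wnt, Fzd, Sfrp, Dkk or Rspo followed by a number), which gave 41 genes among the 30142 measured: 19 Wnt, 10 Fzd, 4 Sfrp, 4 Dkk and 4 Rspo genes. The tumours had grown from ID8-VEGF cells, a mouse ovarian surface epithelial line that produces vascular endothelial growth factor, placed beneath the ovarian bursa. Mice C1M3, C1M5 and C2M3 each gave 1 primary and 1 metastatic tumour, so 3 arrays stood in each group. Line, injection site and late stage were shared by both groups, and no drug or genotype other than the line is named in the labels. The metastatic sites, and the strain, sex and age of the mice, are likewise not given in the labels. Host and tumour cells are both murine, and the arrays measured whole tumour pieces. Values of 3 tumours or 3 mice are listed in the order C1M3, C1M5, C2M3 throughout. The source name of the primary tumour of C2M3 reads C2M2, while its title and donor label read C2M3, which was followed here.

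Wnt proteins are secreted lipid-modified ligands that bind Frizzled receptors. With the co-receptors Lrp5 and Lrp6 they stabilise beta-catenin, which acts on target genes with TCF and LEF factors, and other branches steer cell polarity and calcium. Secreted Frizzled-related proteins bind Wnts, Dickkopf proteins mostly block the Lrp co-receptors, and R-spondins bind Lgr receptors and protect Frizzleds from removal by the ubiquitin ligases Znrf3 and Rnf43. In the ovary Wnt4 and Rspo1 are known for directing female gonad development.

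The deposited log2 intensities carry no detection call, so each gene was set against the receptor-gene level of the array, the 95th percentile of 1717 olfactory and vomeronasal receptor genes, which are mostly silent outside sensory tissue. This level was 5.85, 4.87 and 4.78 in primary tumours against 5.03, 5.74 and 6.11 in metastases, so a dim gene passes more easily in some arrays than in others. Epithelial markers were present throughout, while host cell markers varied. Of 8 mesothelial and ID8 epithelial markers, 7 lay above the level in all 6 tumours, among them the keratin gene Krt8 at 11.20 to 14.20 and Wt1, a mesothelial transcription factor gene, at 10.11 to 11.07. None of 6 oocyte and 5 liver markers measured was above it in any tumour. Of 7 measured ovarian granulosa, theca and luteal markers, 2 were above it in all 6 tumours, 3 in some and 2 in none. Those above it throughout were Inha, at 10.24 to 16.32, and Star, at 9.89 to 10.52. The primary tumour of C1M3 stood apart, with the lowest fibroblast, smooth muscle and macrophage list means and the highest cell cycle list mean of the 6. The members lay above the level in 10 of 41 cases there, against 13 to 19 in the other tumours. Over all 30142 genes the count was 11386 there, against 10876 to 15826 in the others. The level itself, 5.85 there, differed between arrays, so the low count of members is not read as a trait of that tumour.

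Of the 41 genes, 14 (34.1%) were above the receptor-gene level in all 3 tumours of at least 1 group, against 38.3% of all genes. These were the ligand genes Wnt4, Wnt5a, Wnt6 and Wnt10b, the receptor genes Fzd1, Fzd2, Fzd4, Fzd5, Fzd6 and Fzd7, and the modulator genes Sfrp1, Sfrp4, Dkk3 and Rspo1. Of these 14 genes, 8 were above it in all 6 tumours and the other 6 in 5 of them. Being above it in all 6 tumours held for 19.5% of the 41 members and 32.7% of all genes. A further 6 genes passed it in some tumours without filling a group, and 21 in none: 12 Wnt, 3 Fzd, 1 Sfrp, 3 Dkk and 2 Rspo genes, with values between 3.20 and 5.13. With the 99th percentile of the receptor genes as the level, 5 genes remained: Wnt4, Fzd2, Fzd4, Fzd6 and Rspo1. With the 95th percentile of negative control probe sets, a level chosen after the data were seen, 2 remained, Fzd2 and Rspo1. Intensities of different probe sets are not comparable, so no order of abundance among the genes is given.

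No member differed between metastatic and primary tumours past the threshold. With limma and the mouse as a block, 0 of 41 members and 0 of 30142 genes (0%) passed a Benjamini-Hochberg adjusted p of 0.05, and among members the lowest one was 0.841. Unadjusted, 0 members higher and 1 lower, Fzd9, had a p under 0.05, where 2.96% of all genes were higher and 1.97% lower. Without the block the count at the adjusted threshold was also 0 of 30142 (0%), with 4.21% of all genes at an unadjusted p under 0.05. Metastatic means were above primary means for 16 of the 41 members and below for 25, against 16573 and 13237 of all genes. The median of the differences (metastatic minus primary, log2) was -0.04, against 0.02 over all genes. The split of the members depends on the scaling. It was 5 above and 36 below with arrays centred on their medians (median -0.14, against -0.09 over all genes). After a further quantile normalization it was 11 and 30 (median -0.05, against -0.02). Over all genes the split was 9163 and 20979 with centred arrays and 13127 and 17015 after quantile normalization. The fit leaves 2 residual degrees of freedom per gene, to which moderation added 1.04, so the intervals below are wide and a missed threshold does not show that levels were alike.

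**Figure D1:**
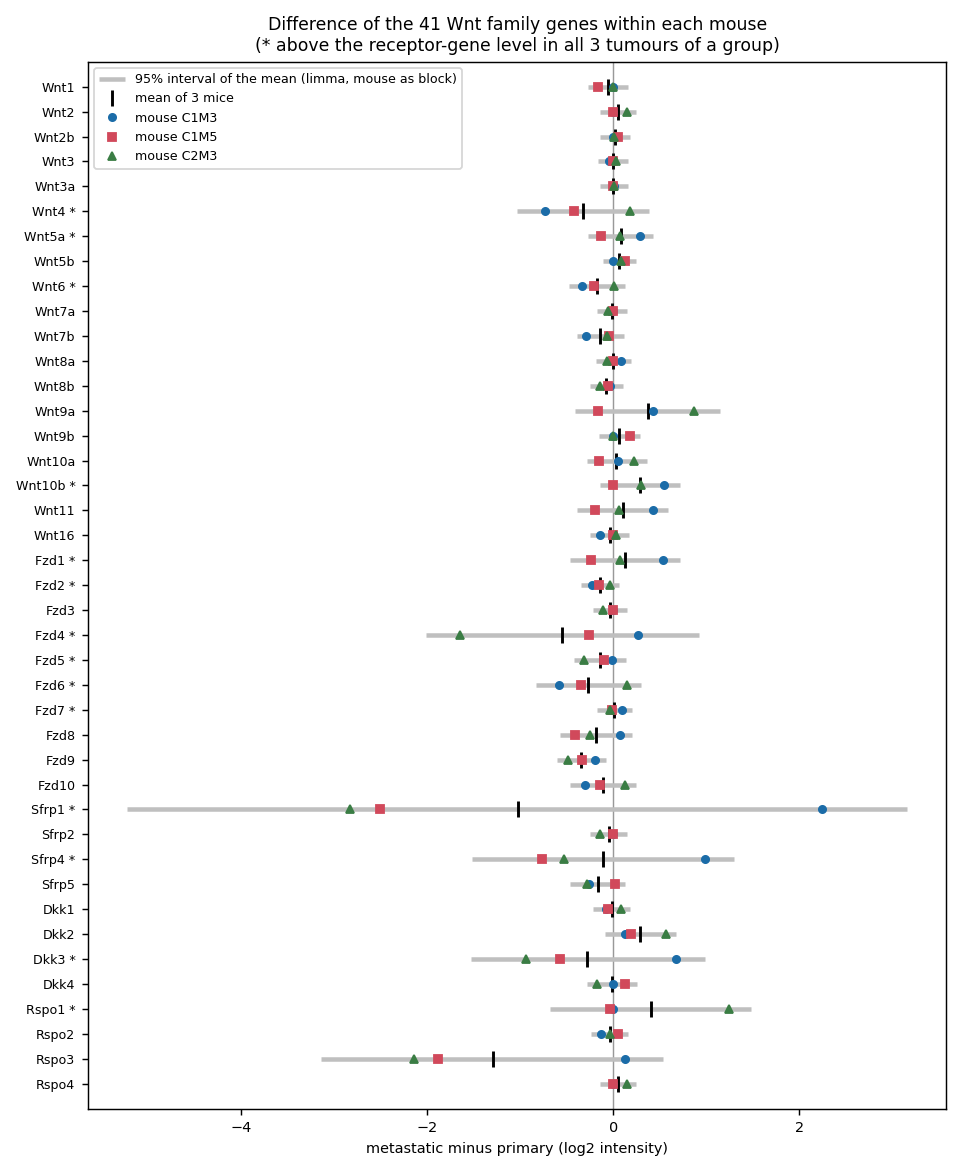
Metastatic minus primary log2 intensity for the 41 genes, with a coloured symbol for each mouse, a black bar for the mean of 3 mice and a grey line for its 95% interval from limma with the mouse as a block; an asterisk marks the 14 genes above the receptor-gene level in all 3 tumours of a group. Most means lie near 0, the interval of Sfrp1 runs from -5.23 to 3.16, and the 3 mice fall on both sides of 0 for Sfrp1, Sfrp4 and Dkk3.

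Among the ligands, Wnt4, Wnt5a and Wnt6 were above the receptor-gene level in every tumour. None of the 4 ligand genes above it in a whole group passed the test. Wnt4, which acts in the ovary and the Mullerian duct, read 8.75, 7.73 and 7.83 (log2 intensity) in primary tumours against 8.0, 7.31 and 8.01 in metastases. Its highest value was in the primary tumour of C1M3 and its lowest in the metastatic tumour of C1M5, and the groups overlapped. The mean difference was -0.33 (SE 0.22, 95% interval -1.04 to 0.38, limma adjusted p = 0.841), with -0.74 and -0.42 in C1M3 and C1M5 and 0.18 in C2M3. Without the primary array of C1M3 it was -0.01.

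Wnt6, a ligand gene of surface epithelia, showed the same extremes at a smaller size. It measured 7.19, 6.86 and 7.06 in primary tumours against 6.84, 6.65 and 7.07 in metastases, again highest in the primary tumour of C1M3 and lowest in the metastatic one of C1M5. The groups overlapped, and the difference was -0.18 (SE 0.10, 95% interval -0.48 to 0.12). Wnt5a, which signals mainly through the branches that do not use beta-catenin, was the steadiest of the ligands above the level, at 7.25, 7.39 and 7.34 in primary tumours against 7.54, 7.26 and 7.41 in metastases. All 6 values lay within 0.29, and the difference of 0.08 (SE 0.11, 95% interval -0.27 to 0.42) turned to -0.03 when arrays were centred on their medians.

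Wnt10b, known for restraining fat cell formation, lay close to the receptor-gene level. Its values were 5.80, 6.07 and 5.86 in primary tumours against 6.35, 6.07 and 6.16 in metastases, below the level in the primary tumour of C1M3 (5.80 against 5.85). The groups overlapped, with a difference of 0.28 (SE 0.14, 95% interval -0.15 to 0.71) made of 0.54, 0.00 and 0.30 within C1M3, C1M5 and C2M3. Wnt9a had the widest difference among ligand genes that did not fill a group above the level, at 0.37 (SE 0.25), with 4.68, 5.01 and 4.69 in primary tumours against 5.10, 4.84 and 5.55 in metastases. Its highest value, in the metastatic tumour of C2M3, was below the level of that array.

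The remaining ligand genes were dim throughout. Wnt1, Wnt2, Wnt2b, Wnt3, Wnt3a, Wnt7a, Wnt7b, Wnt8a, Wnt8b, Wnt9b, Wnt10a and Wnt16 never passed the receptor-gene level, while Wnt11 passed it in 3 tumours and Wnt5b in 1. Wnt3a and Wnt1, classical activators of beta-catenin, spanned 3.36 to 3.37 and 3.20 to 3.37. Of all 41 members, 15 (36.6%) held the same value on at least 3 arrays, against 28.6% of all genes. Of these 15, 14 were among the 21 genes below the level everywhere, and the other was Rspo1, at 10.41 on 3 arrays. For genes with such repeated values small differences between tumours carry little measurement.

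The promoter windows of Wnt4, Fzd4 and Rspo1 are shown because these ligand, receptor and R-spondin genes each had a tumour that stood out. Wnt4 was highest in the primary tumour of C1M3, Fzd4 in the primary tumour of C2M3 and Rspo1 in the metastatic tumour of C2M3. The sequences are from RefSeq, build GRCm38.p6, whose table held 27 of the 41 members. Each is on the + strand and ends at the base before the annotated gene, at chr4:137277385-137277634 for Wnt4, chr7:89404116-89404365 for Fzd4 and chr4:124986180-124986400 for Rspo1. Capitals mark the GC box GGGCGG, read on both strands, where neighbouring copies may overlap.
Wnt4: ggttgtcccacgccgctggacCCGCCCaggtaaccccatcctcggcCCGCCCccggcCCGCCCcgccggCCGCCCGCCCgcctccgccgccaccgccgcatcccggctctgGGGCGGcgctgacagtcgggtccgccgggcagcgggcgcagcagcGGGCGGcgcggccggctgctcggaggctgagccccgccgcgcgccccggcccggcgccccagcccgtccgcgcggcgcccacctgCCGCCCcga
Fzd4: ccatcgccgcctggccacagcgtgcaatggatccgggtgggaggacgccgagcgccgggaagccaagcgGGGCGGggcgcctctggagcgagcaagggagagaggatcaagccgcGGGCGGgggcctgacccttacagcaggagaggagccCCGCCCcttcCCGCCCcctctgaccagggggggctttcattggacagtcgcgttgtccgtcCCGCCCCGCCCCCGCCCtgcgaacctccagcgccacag
Rspo1: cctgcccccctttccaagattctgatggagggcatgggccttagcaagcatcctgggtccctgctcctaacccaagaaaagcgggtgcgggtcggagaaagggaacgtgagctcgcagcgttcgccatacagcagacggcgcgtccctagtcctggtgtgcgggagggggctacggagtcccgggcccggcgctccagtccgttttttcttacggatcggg
The Wnt4 window held 8 GC boxes and 44 CpG dinucleotides, the Fzd4 window 7 and 25, and the Rspo1 window, 221 bases long, 0 and 18. A GC box was present in 32.7% of all RefSeq windows of 250 bases, where the median count of CpG was 6. The TCF and LEF core CTTTG, searched on both strands and found in 48.6% of all windows, was not among these letters in any of the 3 windows.

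Of 10 Frizzled genes, 6 were above the receptor-gene level in a whole group (60%, against 38.3% of all genes). Of these, 4 were above it in every tumour (40% of the 10, against 32.7% of all genes). A lower mean in metastatic tumours was found for 8 of the 10, against 13237 of all 30142 genes (median -0.15). Centring the arrays gave 9 of 10 and -0.25, where the median of all genes moved from 0.02 to -0.09. Fzd2 was measured at 9.27, 9.05 and 9.09 in primary tumours against 9.03, 8.89 and 9.05 in metastases. It was lower in the metastatic tumour of each mouse, by 0.23, 0.16 and 0.04 on the log2 scale, but the groups overlapped and the difference of -0.14 (SE 0.07, 95% interval -0.35 to 0.06) did not pass. The same sign in all 3 mice was found for 5 members downward and 1 upward, against 8.64% and 11.1% of all genes, so it does not set Fzd2 apart.

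Fzd4, the receptor for Norrin as well as Wnts and a gene of blood vessels, varied most among the receptors. It was measured at 7.56, 8.61 and 9.91 in primary tumours against 7.83, 8.35 and 8.25 in metastases, a spread among primary tumours (SD 1.17) well above that among metastatic ones (SD 0.28). The groups overlapped, and within C1M3, C1M5 and C2M3 the difference was 0.26, -0.26 and -1.65 (mean -0.55, SE 0.47, 95% interval -2.02 to 0.92). The endothelial list had its highest mean in the same tumour, 8.62 in the primary tumour of C2M3, against 6.36 and 7.21 in the other primary and 7.50, 6.01 and 7.19 in the metastatic tumours, with 4 to 6 of its 6 genes above the level in each. The adipocyte, smooth muscle and fibroblast lists also had their highest means in the primary tumour of C2M3, at 11.26, 8.63 and 10.94. The part of vessels or of these other cells in the values of Fzd4 was not tested. In whole tumour pieces fewer cells of a type and less RNA per cell cannot be told apart.

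Fzd6, which often acts in planar polarity, shared its highest and lowest tumour with Wnt4. It measured 7.50, 6.01 and 6.67 in primary tumours against 6.91, 5.67 and 6.81 in metastases, highest in the primary tumour of C1M3 and lowest in the metastatic tumour of C1M5, where it lay under the receptor-gene level. Both tumours of C1M5 were the lowest of their groups. The groups overlapped, and the difference was -0.27 (SE 0.18, 95% interval -0.83 to 0.30).

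Fzd7, a receptor often studied in epithelial stem cells, was nearly level across the tumours, at 6.36, 6.48 and 6.46 in primary tumours against 6.46, 6.47 and 6.41 in metastases. Its difference of 0.01 (SE 0.06) had a 95% interval of -0.18 to 0.20 and turned to -0.10 with centred arrays and to -0.07 with a further quantile normalization. Fzd1 measured 6.61, 7.09 and 7.09 in primary tumours against 7.14, 6.85 and 7.17 in metastases, where the low value of the primary tumour of C1M3 set the sign of the difference (0.12, SE 0.19, 95% interval -0.47 to 0.72). Fzd5, a receptor for Wnt5a among other ligands, measured 6.46, 6.48 and 6.41 in primary tumours against 6.44, 6.38 and 6.10 in metastases (-0.15, SE 0.09, 95% interval -0.42 to 0.13), and its lowest value, in the metastatic tumour of C2M3, was just under the level of that array (6.11). The groups overlapped for both genes.

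Fzd9 was the member with the smallest unadjusted p and the only one whose groups did not overlap, where 2.84% of all genes did not overlap in that direction and 4.79% in the other. It had 5.46, 5.44 and 5.77 in primary tumours against 5.25, 5.11 and 5.27 in metastases. All metastatic values lay under all primary values, but 3 of the 6 were below the receptor-gene level. The difference was -0.35 (SE 0.08, 95% interval -0.61 to -0.08, limma unadjusted p = 0.0249, adjusted p = 0.841). Fzd3, Fzd8 and Fzd10 were below the receptor-gene level in every tumour.

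**Figure D2:**
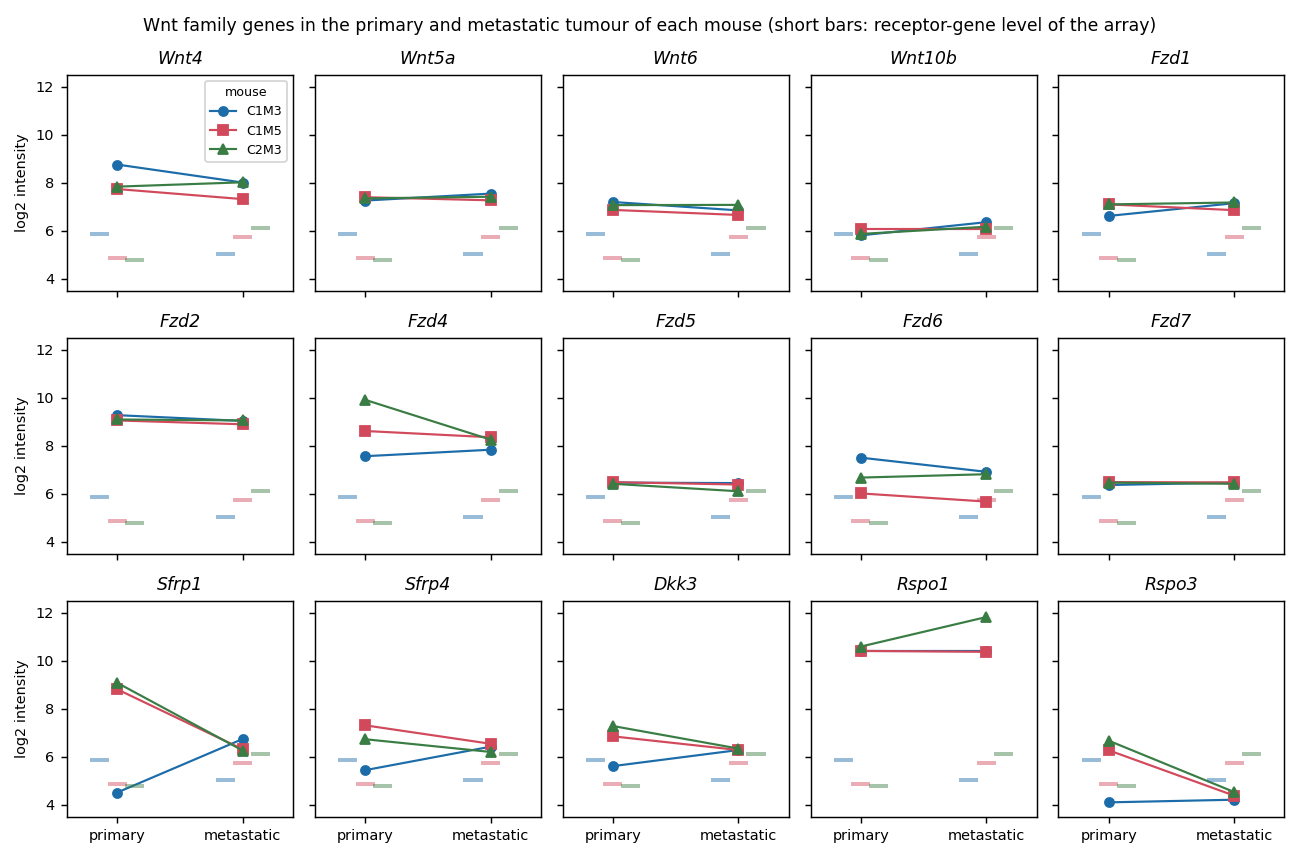
Log2 intensity of the 14 genes above the receptor-gene level and of Rspo3 in the primary and metastatic tumour of each mouse, with a line joining the tumours of a mouse and short bars for the receptor-gene level of each array in the colour of its mouse. The lines of Sfrp1 run from 8.81 to 6.31 in C1M5, from 9.08 to 6.26 in C2M3 and from 4.51 to 6.74 in C1M3, while those of Fzd2, Fzd7 and Wnt5a are nearly flat.

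Among the secreted inhibitor genes, Sfrp1, Sfrp4 and Dkk3 went opposite ways in different mice, and Sfrp1 had the widest range over the 6 tumours of all 41 members. Sfrp1, which binds Wnts outside the cell, read 4.51, 8.81 and 9.08 in primary tumours against 6.74, 6.31 and 6.26 in metastases. The primary tumours held both the lowest and the highest values, and the metastatic tumours lay together between them. Within C1M5 and C2M3 the metastatic tumour was lower by 5.68-fold and 7.10-fold. These folds end near the receptor-gene level, since the metastatic values of 6.31 and 6.26 stood against levels of 5.74 and 6.11. Within C1M3 the metastatic tumour was the higher one, but no fold is given there. The primary value of 4.51 lay under the receptor-gene level of its array (5.85). The mean difference of -1.03 (SE 1.33, 95% interval -5.23 to 3.16) had a limma adjusted p = 0.862. The difference was -2.67 without mouse C1M3 (limma adjusted p = 0.278), -0.30 without C1M5 and -0.13 without C2M3 (limma adjusted p = 1 in both).

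Sfrp4 and Dkk3 ran the same way at a smaller size. Sfrp4, a related Wnt-binding protein gene, measured 5.44, 7.31 and 6.73 in primary tumours against 6.42, 6.54 and 6.20 in metastases. Dkk3, the divergent Dickkopf whose action on Wnt signalling is unsettled, measured 5.61, 6.85 and 7.28 in primary tumours against 6.28, 6.28 and 6.34 in metastases. For both genes the primary tumour of C1M3 was the lowest, under its receptor-gene level, the other primary tumours were the highest and the metastatic tumours lay between. The differences were -0.11 (SE 0.45, 95% interval -1.52 to 1.30) for Sfrp4 and -0.28 (SE 0.40, 95% interval -1.53 to 0.98) for Dkk3. The signs rest on which mice are averaged: Dkk3 differed by 0.67 in C1M3, -0.57 in C1M5 and -0.94 in C2M3, and Sfrp4 by 0.98, -0.77 and -0.53.

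The other inhibitor genes were near or below the receptor-gene level. Dkk1, Dkk2 and Dkk4, of which Dkk1 is the classical Lrp blocker, and Sfrp2 passed it in no tumour, and Sfrp5 passed it in 1 with a value of 4.80. Dkk2 was higher in the metastatic tumour of each mouse, from 4.36, 4.73 and 4.57 to 4.48, 4.92 and 5.13, all under the level of their arrays. Sfrp2 held the same value, 4.14, in 5 of the 6 tumours.

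Of the R-spondins, only Rspo1 was above the receptor-gene level in every tumour. It measured 10.41, 10.41 and 10.59 in primary tumours against 10.41, 10.37 and 11.82 in metastases, and 10.41 was an identical value on 3 arrays. The metastatic tumour of C2M3 stood apart from the rest and was higher than the primary tumour of the same mouse by 2.35-fold. The groups overlapped, and the mean difference of 0.40 (SE 0.34, 95% interval -0.68 to 1.48) rests on that tumour, since the difference was 0.00 within C1M3 and -0.04 within C1M5.

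Rspo3, an R-spondin gene of vessels and stroma, had the widest mean difference of the 41 members. It measured 4.10, 6.27 and 6.67 in primary tumours against 4.21, 4.38 and 4.53 in metastases. Only the primary tumours of C1M5 and C2M3 were above the receptor-gene level, and the metastatic tumours of both mice lay under it, so no fold is given. The groups overlapped through the primary tumour of C1M3, and the difference of -1.30 (SE 0.58, 95% interval -3.14 to 0.53) had a limma adjusted p = 0.841. It was -2.02 without C1M3 and -0.81 without the primary array of C2M3. Mean differences of 2-fold or more on the measured scale, which includes values under the level, were found in 2 members, Rspo3 and Sfrp1, both lower in metastatic tumours, against 0.567% of all genes lower and 1.61% higher. Rspo2 and Rspo4 were below the level in every tumour.

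Sfrp1, Sfrp4, Dkk3, Fzd4, Rspo3 and the dim Fzd8 shared an order over the tumours: the primary tumours of C1M5 and C2M3 were the highest and the primary tumour of C1M3 the lowest. This order, picked after the values were seen and so given without a test, held for 6 of 41 members (14.6%) and for 2.11% of all genes. It also held for 3 of 6 smooth muscle genes, 2 of 7 fibroblast genes, 2 of 8 adipocyte genes, 1 of 6 macrophage genes, 0 of 6 endothelial genes and 0 of 8 mesothelial and ID8 epithelial genes. The adipocyte list had means of 6.11, 9.12 and 11.26 in the primary tumours of C1M3, C1M5 and C2M3 and of 5.87 to 6.31 in the metastatic tumours, with 3, 7 and 8 of its 8 genes above the receptor-gene level in the primary tumours and 3 to 6 in the metastatic ones. The smooth muscle list had 6.10, 7.74 and 8.63 against 6.54 to 6.82, with 3, 6 and 6 of its 6 genes above the level against 3 to 5. The fibroblast list had 6.87, 9.87 and 10.94 against 8.58 to 9.71, with 3, 7 and 6 of its 7 measured genes above the level against 6 in each metastatic tumour. The part of these cell types in the values of Sfrp1, Sfrp4, Dkk3, Fzd4 and Rspo3 was not tested.

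**Figure D3:**
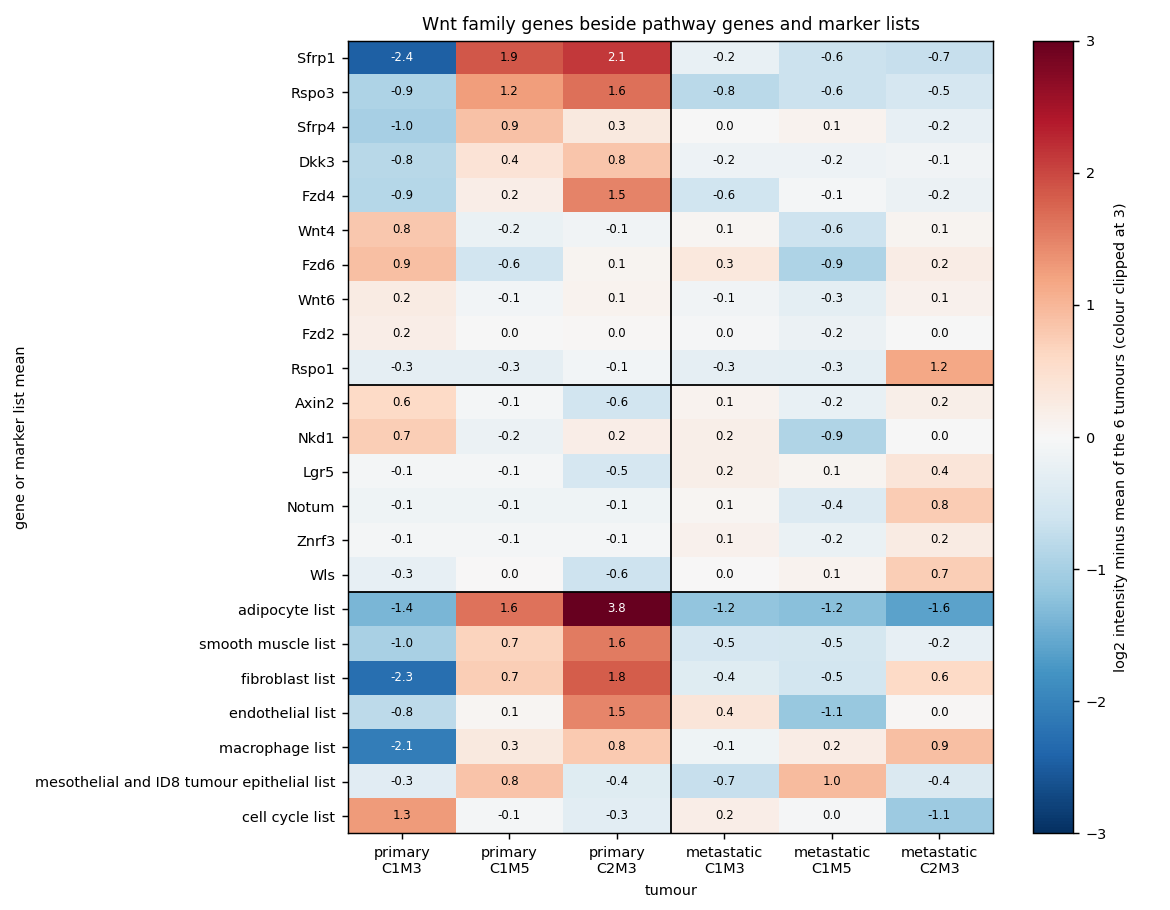
Log2 intensity minus the mean of the 6 tumours for 10 Wnt family genes (top), 6 pathway genes (middle) and the means of 7 marker lists (bottom), a column for each tumour, with red above and blue below the mean. Sfrp1, Rspo3, Sfrp4, Dkk3 and Fzd4 are red in the primary tumours of C1M5 and C2M3 and blue in that of C1M3. The adipocyte, smooth muscle, fibroblast and macrophage lists are so too, and the endothelial list as well, though barely above its mean in C1M5.

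Wnt4, Wnt6, Fzd2 and Fzd6 were all highest in the primary tumour of C1M3. Being highest in that tumour was common, at 10 of 41 members (24.4%) and 28.9% of all genes, so the members were near the share of all genes. The beta-catenin targets Nkd1 and Axin2, the second chosen after its values were seen, were also highest there. This held for 3 of the 11 measured targets (27.3%), again near the share of all genes. The target Nkd2, named after its values were seen, was instead lowest there and shared the order of Sfrp1. Its values were 5.45, 8.29 and 8.30 in primary tumours against 7.51, 6.83 and 6.96 in metastases. Nkd1, a feedback inhibitor, measured 7.93, 7.01 and 7.38 in primary tumours against 7.36, 6.29 and 7.17 in metastases, and like Wnt4 was lowest in the metastatic tumour of C1M5. Axin2, a scaffold of beta-catenin breakdown and its widely used target, measured 8.70, 8.05 and 7.53 in primary tumours against 8.22, 7.88 and 8.30 in metastases, with its lowest value in the primary tumour of C2M3. In the primary tumour of C1M3 the cell cycle list averaged 9.08, against 6.72 to 8.01 elsewhere, and the macrophage list 6.48 against 8.44 to 9.45, with 7 of 7 and 3 of 6 measured genes above the receptor-gene level there and 3 to 7 and 6 elsewhere. The part of tumour cell content in these values was not tested.

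The rest of the pathway was examined through 5 lists of genes, and with limma 0 genes in each list passed the test in either direction. Of 17 measured genes for Wnt secretion and co-receptors, 12 were above the receptor-gene level in all 6 tumours (70.6%, against 32.7% of all genes). A higher mean in metastatic tumours was found for 13 of them, against 16573 of all 30142 genes (median 0.11, against 0.02). With centred arrays 9 of 17 were higher (median 0.01), against 9163 of all genes (median -0.09). The co-receptor gene Lrp5 measured 9.14, 8.99 and 7.54 in metastases and 9.25 and 8.54 in the primary tumours of C1M5 and C2M3, with that of C1M3 the highest of all. It was lower in each mouse (-0.70, SE 0.19, limma unadjusted p = 0.0346, adjusted p = 0.841), while the groups overlapped, and the difference ran from -1.07 without the primary array of C2M3 to -0.19 without the metastatic one. Wls, which carries Wnts to the cell surface, measured 10.90, 11.17 and 10.54 in primary tumours against 11.17, 11.26 and 11.89 in metastases, higher in each mouse (0.57, SE 0.32). Gpc4, a glypican that holds Wnts at the surface, differed by 0.73 (SE 0.33), or by 0.41 as the mean over its probe sets and by 0.37 to 1.26 when a mouse or an array was left out. Its relative Gpc3, chosen after its values were seen, read 4.47, 7.16 and 8.73 in primary tumours against 5.08, 4.86 and 5.50 in metastases, and so shared the order of Sfrp1 and Rspo3.

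The metastatic tumour of C2M3, where Rspo1 was highest, also had the highest values of several genes linked to R-spondins or beta-catenin. Others, picked after their values were seen, went the other way. Lrp5, Myc and the beta-catenin target Cd44 had their lowest values there, at 7.54, 7.28 and 5.98. Lgr4, an Lgr receptor gene, read 8.44 there, against 9.12 and 9.19 in the other metastatic tumours. The primary tumour of C2M3 read 8.23. Lgr4 was higher in the metastatic tumour of each mouse (0.17, SE 0.05, limma unadjusted p = 0.0483, adjusted p = 0.841), with overlapping groups. Lgr5, an R-spondin receptor and beta-catenin target, measured 6.30, 6.30 and 5.86 in primary tumours against 6.52, 6.43 and 6.72 in metastases. Its groups did not overlap (0.40, SE 0.19, limma adjusted p = 0.841), as for 4.79% of all genes in that direction. Notum, a secreted enzyme that inactivates Wnts, measured 6.06 in each primary tumour and 6.25, 5.78 and 6.97 in the metastatic ones (0.28, SE 0.28). Znrf3, the ligase that R-spondins restrain, named after its values were seen, measured 9.49 in each primary tumour and 9.67, 9.35 and 9.79 in the metastatic ones. Notum and Znrf3 each held an identical value in the 3 primary tumours, as Rspo1 did on 3 arrays. Small differences from such repeated values carry little measurement. Being highest in this tumour held for 7 of 17 genes of the secretion and co-receptor list (41.2%) and 5 of 11 beta-catenin targets (45.5%), where Lgr5, Notum and Znrf3 stand in both lists, and for 4 of 8 other secreted inhibitors (50.0%), Notum among them. It held for 4 of 19 beta-catenin pathway genes inside the cell (21.1%), 1 of 14 planar polarity and calcium branch genes (7.14%), 8 of 41 members (19.5%) and 21.5% of all genes. Among cell type markers it held for 3 of 6 macrophage genes (50.0%) and 3 of 5 measured T cell genes (60.0%), and the part of these cells in the values was not tested. The receptor-gene level was also highest in this array.

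Of 19 measured genes of the beta-catenin pathway, 15 were above the receptor-gene level in all 6 tumours (78.9%, against 32.7% of all genes). The mean in metastatic tumours was higher for 7 of the 19 and lower for 12 (median -0.01). With centred arrays 3 were higher and 16 lower (median -0.12), and after quantile normalization 5 and 14 (median -0.09). The kinase gene Gsk3a, whose product marks beta-catenin for breakdown, measured 10.41, 10.70 and 10.50 in primary tumours against 10.18, 10.22 and 10.12 in metastases. The groups did not overlap (-0.36, SE 0.08, limma unadjusted p = 0.0186, adjusted p = 0.841). This held for 2 of the 19 genes, Gsk3a and Bcl9, both lower in metastatic tumours, against 2.84% of all genes in that direction. Gsk3b, a relative of Gsk3a, differed by -0.32 (SE 0.20), which was -0.03 without the metastatic array of C2M3. The Frizzled adaptor gene Dvl3 differed by -0.43 (SE 0.20) and Bcl9l, a beta-catenin co-activator gene, by -0.26 (SE 0.21).

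Of 11 measured beta-catenin targets, 6 had a higher and 5 a lower mean in metastatic tumours (median 0.04, or -0.07 with centred arrays). Myc, the growth regulator, measured 8.54, 8.82 and 8.54 in primary tumours against 8.39, 8.32 and 7.28 in metastases, with no overlap (-0.63, SE 0.27, limma adjusted p = 0.841). Nkd1 differed by -0.50 (SE 0.13, limma unadjusted p = 0.0308, adjusted p = 0.841). Groups did not overlap for 2 targets upward, Lgr5 and Ccn4, and 1 downward, Myc, against 4.79% and 2.84% of all genes. Of 8 other secreted inhibitors measured, 1, Notum, was above the receptor-gene level in a whole group. Among 14 planar polarity and calcium branch genes 6 were higher, 7 lower and 1 equal in the mean (median 0.00), against 3 higher and 11 lower with centred arrays (median -0.11). The widest differences there were those of Daam2 (-0.30, SE 0.19), Celsr1 (-0.23, SE 0.61), Rock1 (0.20, SE 0.19) and Nfatc3 (-0.19, SE 0.10). The genes Ctnnb1, Rnf43 and Ccnd1 were not analysed here.

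**Figure D4:**
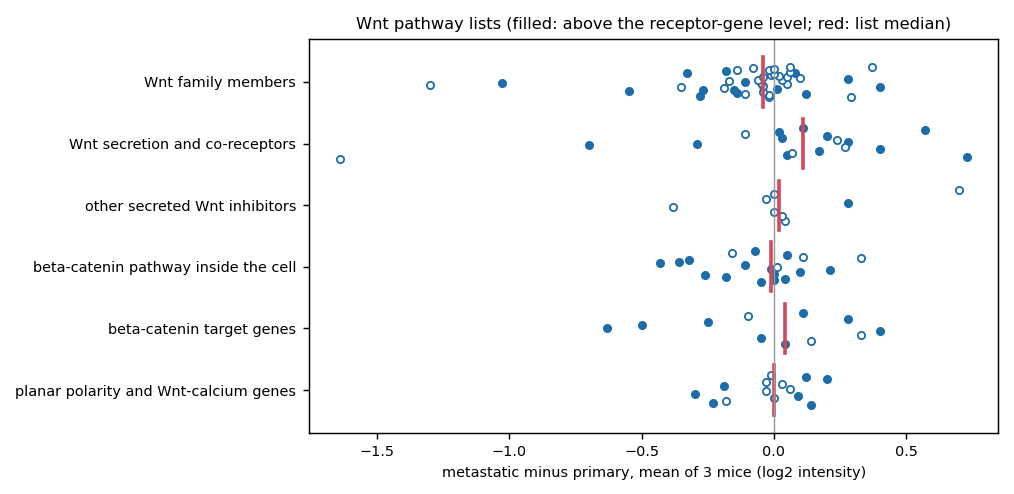
Mean metastatic minus primary difference (log2 intensity) of each gene in the Wnt family and in 5 pathway lists, with filled points for genes above the receptor-gene level in all 3 tumours of a group, open points for the others and a red bar for the list median. The medians lie between -0.04 and 0.11, and no point passed the test.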

How the data were processed

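RNA of 3 primary and 3 metastatic tumours was hybridised to whole-transcriptome arrays, 1 per tumour. The authors deposited log2 intensities per probe set, made with RMA and Transcriptome Analysis Console per the submitters' processing notes, without versions. They are not centred per gene, and the medians of the arrays ran from 4.90 to 5.15. The build behind the array design is not given in the sources used here. Of 65956 non-control probe sets, 30604 carried 1 gene symbol, 2146 several and 33206 none in the platform annotation. Symbols were updated through a RefSeq table, and the probe set with the highest mean was kept, which gave 30142 genes; each member had 1 probe set.

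Tissue was tested in limma 3.58.1 (R 4.3.3) with the mouse as a block, with a two-sided test, p adjusted by Benjamini-Hochberg over the 30142 genes and a threshold of 0.05. The pairing follows from the donor labels. The deviations of the paired tumours from their group means correlated with r = -0.05, 0.35 and 0.07 in C1M3, C1M5 and C2M3. Outside the pair the highest r was 0.13, -0.02 and 0.13, which exceeded the paired r in C1M3 and C2M3 but not in C1M5. Whether the labels pair the tumours correctly was not tested. The fit was also run on simulated data, whose outcome is not reported here and carries no weight for these results. Alternatives were the fit without the block, leaving out mice or arrays, centring, quantile normalization, a filter on dim genes, a trended prior and the mean over probe sets. Genes above the receptor-gene level in all 3 tumours of a group are given in full, with the 3 widest differences among the other members and up to 4 genes of each pathway list. The members and lists were chosen with earlier results of these data known. The mice are separate animals, and 3 per group limit the precision.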

Additional observations from a re-analysis of the deposited data

How the results depend on the processing

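No gene passed under any alternative: the count was 0 among members and among all genes in each, and the smallest limma adjusted p of a member ranged from 0.278 (without both tumours of C1M3) to 1. Without the replicate block the count of members past the threshold was 0 and the median difference of members was again -0.04. That median was -0.14 with arrays centred, which moved the median of all genes from 0.02 to -0.09, and ran from -0.04 to 0.00 when a mouse or an array was left out. Centring turned Fzd7 to -0.10, Wnt5a to -0.03 and Axin2 to -0.07, and quantile normalization turned Fzd7 to -0.07. The sign of some uncalled differences turned when a mouse (both tumours) or a single array (fit without the block) was left out. Without C1M3, or its primary array, these were Fzd1 (lowest -0.08, highest 0.30), Fzd7 (-0.03 to 0.04; -0.02 without that array) and Wnt5a (-0.03 to 0.18, with the mouse only). Without the primary array of C1M3 or the metastatic array of C1M5 they were Fzd6 (-0.62 to 0.13; 0.12 in the first case), Rock1 (-0.10 to 0.45) and Daam2 (-0.56 to 0.10; 0.05 in the first case). Without C2M3 or 1 of its arrays they were Dkk3 (-0.76 to 0.07; -0.75 to 0.05 over whole mice), Fzd4 (-1.12 to 0.06, its primary array only), Rspo1 (-0.08 to 0.65; -0.02 to 0.62 over whole mice), Notum (-0.04 to 0.55) and Axin2 (-0.33 to 0.34; -0.24 without the primary array), which was also 0.00 without the metastatic array of C1M3. Without C1M5 or C2M3 they were Sfrp4 (-0.65 to 0.30; up to 0.22 over whole mice and 0.01 without the primary array of C2M3) and Celsr1 (-0.98 to 0.33; up to 0.23 over whole mice). Without a change of sign, such omissions also moved Wls (0.18 to 0.81), Lgr5 (0.18 to 0.54), Myc (-0.88 to -0.27), Nkd1 (-0.72 to -0.18), Wnt9a (0.12 to 0.64) and Wnt10b (0.15 to 0.42). The causes were not tested. The ranges cover all 9 such settings. The count of members above the level, 14, was 5 at the 99th percentile of receptor genes, 16 at the median of all genes, and, with levels chosen after the data were seen, 12 at the highest background probe set, 18 at the median and 2 at the 95th percentile of negative control probe sets.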
